A study of Danio rerio with 6 samples.

Results

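Collagens are the main structural proteins of the extracellular matrix. Each is a trimer of alpha chains, so a working molecule needs the products of 1 to 3 genes in fixed proportion. Fibrillar collagens, a class limited here to types I, II, III, V and XI, form the cables of scars, tendon and cartilage. Type V starts and thins type I fibrils. Basement membrane collagens form or decorate the sheet under every endothelium, type IV as its network and types XV and XVIII as collagens that carry sugar side chains. Type VI forms beaded filaments between the sheet and the fibrils. In the injured zebrafish heart a collagen-rich scar forms for a time and is then removed as muscle regrows, and fibroblasts, epicardial cells and endocardium are known to contribute matrix. The genes described here are those whose zebrafish gene name starts as a collagen chain name (COL, a type number, A, a chain number). They were 57 of the 32520 genes counted, and 13 were fibrillar, 9 basement membrane, 5 type VI and 30 of other types. No gene in the name table carried a type III name. A minimum of 10 counts in 3 or more libraries was met by 23 of the 57, of which 7 were fibrillar, 3 basement membrane, 4 type VI and 9 other. Names are given as the table spells them, upper case where it uses the human-style name, and an Ensembl ID is added where 2 collagen genes share a name.

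RNA was sequenced from endothelial cells of the ventricle of adult zebrafish (strain Tu), 7 days after part of the ventricle was cut away. All fish carried kdrl:eGFP, which marks endothelium and endocardium and was the basis of the sort, and a ubi:loxP-DsRed-stop-loxP construct that can express DN-xBrg1, a dominant-negative form of Xenopus Brg1, the motor subunit of SWI/SNF, which moves nucleosomes. DNK fish also carried kdrl:CreER, so that 4-hydroxytamoxifen, given for 3 days before resection, switched the construct on in kdrl-expressing cells. CtrlK fish lacked the Cre driver. One protocol gives them the same 4-hydroxytamoxifen, while other labels call them untreated wild-type siblings, so that an effect of the Cre driver, and of the drug if they were untreated, cannot be told apart from that of DN-xBrg1. Each isolation used about 15 hearts, with 3 libraries a group. Nothing in the labels tells whether replicates are separate pools, so that the p-values speak of the spread between libraries alone, which may be technical.

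Only 1.08% to 1.48% of the deposited reads of a library were assigned to genes (1.15% ± 0.108 for CtrlK, 1.48% ± 0.00638 for DNK, mean ± SD, n = 3 each). That left 174371 to 227373 gene counts. Collagen genes together held 915, 1146 and 1237 counts in CtrlK replicates 1 to 3 and 1009, 1225 and 1036 in DNK replicates 1 to 3. Their share of all gene counts was 0.549% ± 0.0232 in CtrlK and 0.503% ± 0.0537 in DNK (mean ± SD, n = 3 each). A single gene with 3 counts stood at 13.2 to 17.2 CPM of all gene counts, so most collagen genes were read at a depth where counting error is large. Levels below are normalized CPM (read counts scaled to a common library total, with TMM factors). They are not divided by transcript length, so they are compared between groups for 1 gene and not between genes. The identity of the sorted cells was checked on 27 IDs of endothelial genes. Of these, 16 had counts in every library, cdh5, flt1, kdrl and tek among them, and 2 were at 0 in every library, aqp8b and 1 of those named CLDN5. ERG, an endothelial transcription factor, had 0 to 4 counts in a library. The endothelial sum was 2374 to 2999 CPM in CtrlK and 3532 to 4015 CPM in DNK. Cardiomyocyte and epicardial markers were present beside them, with summed levels of 3070 to 4676 CPM and 1685 to 6004 CPM over the 6 libraries.

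Among the collagen genes 1 rose in DNK, none fell, and 22 of the 23 tested did not pass. The gene that rose was COL1A2, the alpha-2 chain of type I collagen. The called share of 4.35% stood beside 7.12% of all 3792 genes tested, with 4.72% called higher and 2.40% called lower (edgeR's quasi-likelihood test, Benjamini-Hochberg adjusted p below 0.05). By DESeq2 and by limma-voom the counts were also 1 higher and 0 lower. At an unadjusted p below 0.05 there were 4 collagen genes higher and 1 lower, beside 13.7% and 11.2% of all genes. The 3 DNK libraries lay wholly above the 3 CtrlK libraries for 4 of the 23 genes and wholly below for 5, beside 16.2% and 14.6% of all genes. The median log2 fold change of the 23 was −0.25, with 13 negative, and that of all genes tested was −0.07, with 53.1% negative. The called count of 1 is too small to set the members apart from all genes, and no test of that was made. Of the 23, 2 met the count minimum through 1 group alone, COL2A1 (ENSDARG00000011407) in CtrlK and col6a4a in DNK.

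**Figure D1:**
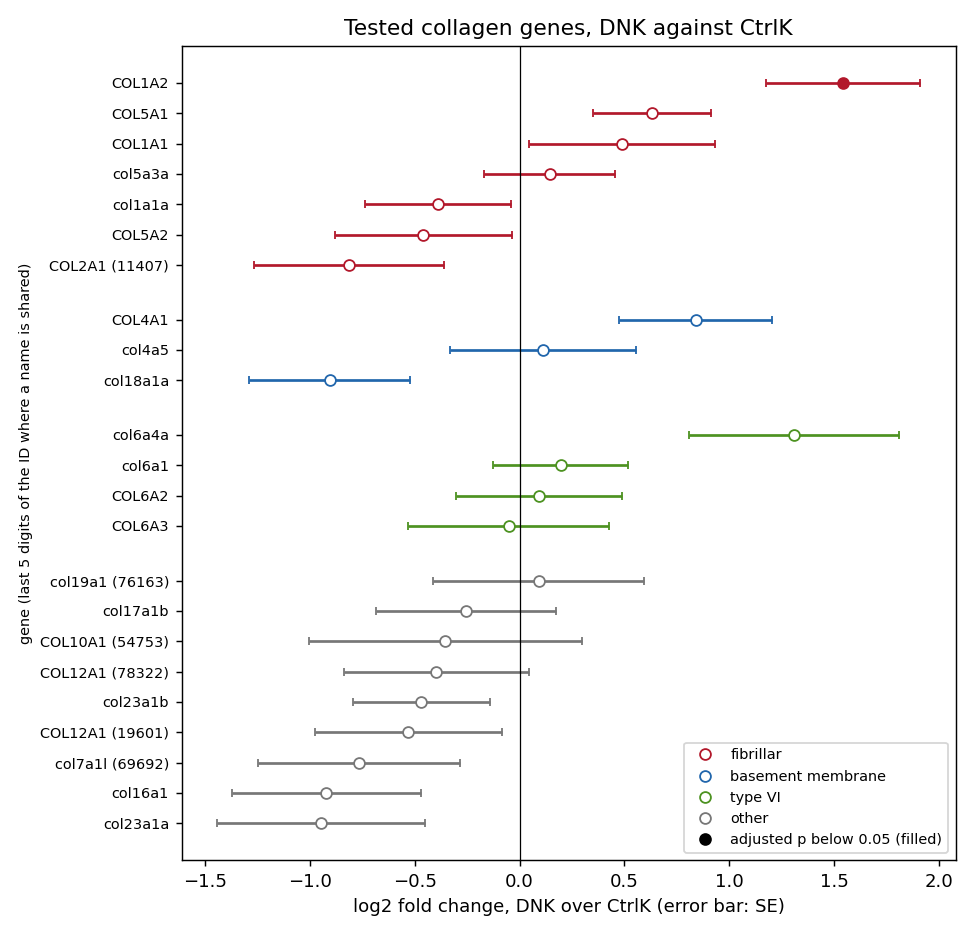
Log2 fold change of each tested collagen gene in DNK over CtrlK with its standard error (horizontal axis), grouped by class, 3 libraries a group. COL1A2, the filled point at 1.54, was the gene past an adjusted p of 0.05, and 8 of the 9 genes of other types lie below 0.

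Type I collagen, the main fibril of scars, is built from alpha-1 and alpha-2 chains. Zebrafish have 3 type I genes, here COL1A2 and the alpha-1 genes col1a1a and COL1A1. COL1A2 had 102, 88.2 and 167 normalized CPM in CtrlK replicates 1 to 3 and 409, 354 and 285 in DNK replicates 1 to 3. The lowest DNK library was well above the highest CtrlK library. COL1A2 rose 2.91-fold, its mean going from 119 ± 42.2 to 349 ± 62.2 CPM (mean ± SD, n = 3 each), which is 1.54 ± 0.37 as log2 with its SE, at an adjusted p of 0.0229. Leaving out 1 library ended the call for CtrlK replicate 1 (adjusted p = 0.0684), CtrlK replicate 2 (0.0782), DNK replicate 1 (0.0838) or DNK replicate 2 (0.0603). It was also lost with reads outside genes, per gene count, as a covariate (log2 fold change 0.43, adjusted p = 0.940). That covariate was higher in every CtrlK library than in any DNK library, so the fit cannot separate it from the group difference. The adjusted p of COL1A2 lay between 0.00950 and 0.940 across the 16 alternatives.

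The alpha-1 genes did not pass. col1a1a had 229.7, 193 and 334 CPM in CtrlK and 171, 201 and 207 in DNK, so the groups overlapped (log2 fold change −0.39 ± 0.35, adjusted p = 0.517). COL1A1 had 128, 71.7 and 162 CPM in CtrlK and 116, 242 and 149 in DNK, again overlapping (log2 fold change 0.49 ± 0.44, adjusted p = 0.520). Within a library the make-up of the type I counts does not depend on how libraries are scaled. COL1A2 gave 22.2%, 25.0% and 25.2% of the type I counts in CtrlK replicates 1 to 3 (16 of 72, 16 of 64 and 31 of 123) and 58.8%, 44.4% and 44.4% in DNK (67 of 114, 60 of 135 and 44 of 99). The DNK shares were all above the CtrlK shares. The exact (Clopper-Pearson) 95% intervals reached at most 37.4% in CtrlK, for replicate 2, and began at 34.5% or higher in DNK, so the intervals of some libraries overlapped. The share of col1a1a was 51.7% ± 2.60 in CtrlK and 27.4% ± 4.31 in DNK, and that of COL1A1 was 24.2% ± 3.74 and 23.4% ± 6.85 (mean ± SD, n = 3 each). These shares were chosen after the values were seen and carry no test.

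**Figure D2:**
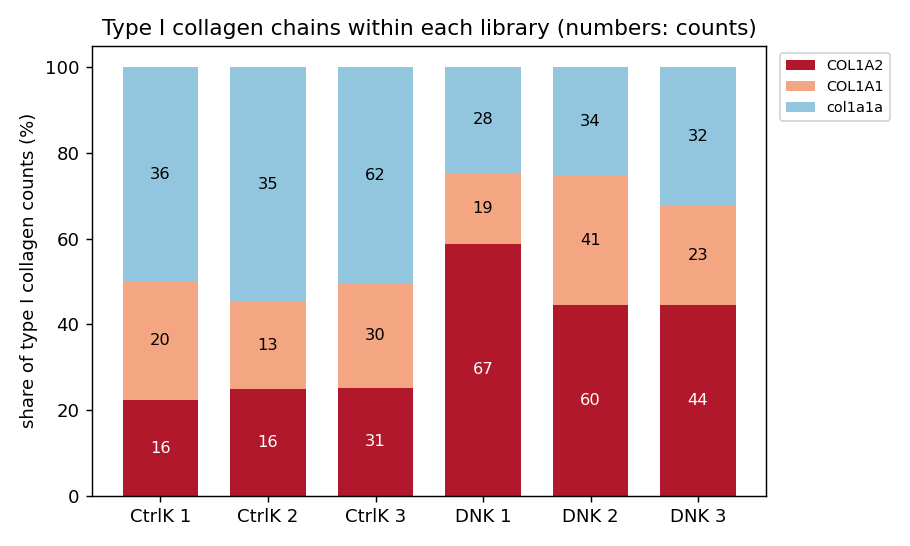
Share of the type I collagen counts (vertical axis, %) from each of the 3 type I genes in each library, with the counts printed in the bars. COL1A2 takes 22.2% to 25.2% in the CtrlK libraries and 44.4% to 58.8% in the DNK libraries, and col1a1a takes a smaller part in DNK than in CtrlK.

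Type V collagen nucleates and limits type I fibrils. COL5A1, which encodes its alpha-1 chain, held 17.5% to 24.7% of all collagen counts in CtrlK and 25.7% to 39.7% in DNK. It had 1366, 1108 and 1645 CPM in CtrlK and 1782, 2870 and 1721 in DNK. All DNK libraries were above all CtrlK libraries, DNK replicate 3 only narrowly so, and DNK replicate 2 stood apart. COL5A1 did not pass (log2 change 0.63 ± 0.28, adjusted p = 0.179), and without DNK replicate 2 the value was 0.39. col5a3a, an alpha-3 chain gene, had 536, 838 and 437 CPM in CtrlK and 580, 697 and 725 in DNK, within the same range (log2 fold change 0.14 ± 0.31, adjusted p = 0.806). COL5A2, an alpha-2 chain gene, had 134, 149 and 129 CPM in CtrlK and 97.6, 129.9 and 71.2 in DNK (log2 fold change −0.46 ± 0.42, adjusted p = 0.524). The other type V genes, col5a2b and col5a3b, were below the count minimum, with 6, 10 and 5 counts for col5a2b in CtrlK and 4, 2 and 5 in DNK.

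Types II and XI are the fibrils of cartilage. COL2A1 (ENSDARG00000011407) had 18, 17 and 12 counts in CtrlK and 9, 8 and 8 in DNK, or 115, 93.7 and 64.7 against 54.9, 47.2 and 51.8 CPM. The groups did not overlap, and the gene did not pass (log2 change −0.81 ± 0.45, adjusted p = 0.282). COL11A1 had 9, 15 and 8 counts in CtrlK against 4, 1 and 2 in DNK, and col11a1b had 5, 14 and 9 against 4, 1 and 3. Both lay below the count minimum and were not tested, and for both each DNK library was under each CtrlK library in CPM. The 11 genes of types II, IX, X and XI, the cartilage collagens, summed to 348 ± 77.4 CPM in CtrlK and 177 ± 9.73 in DNK (mean ± SD, n = 3 each), a grouping made after the values were seen. Of 5 tested cartilage and bone markers other than collagens, 0 passed, and all 5 log2 fold changes were below 0, from −0.96 to −0.05. Their summed CPM overlapped, at 1064 to 1761 in CtrlK and 903 to 1081 in DNK. hapln1a, a cartilage matrix link protein, stood at −0.96 ± 0.45 as log2 (adjusted p = 0.202) and the transcription factor gene SOX6 at −0.58 ± 0.40 (adjusted p = 0.389).

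The 3 tested basement membrane genes differed in sign. COL4A1, the alpha-1 chain of the common type IV trimer, had 128, 99.2 and 167 CPM in CtrlK and 214, 248 and 246 in DNK. Its DNK libraries were all above its CtrlK libraries, with a mean of 131 ± 34.1 against 236 ± 19.3 CPM (mean ± SD, n = 3 each). It did not pass (log2 change 0.84 ± 0.36, adjusted p = 0.166). COL4A2, whose chain joins that of COL4A1 in the same trimer and which is its next coding gene in the RefSeq table (assembly GRCz12tu), had 9, 4 and 10 counts in CtrlK and 7, 9 and 6 in DNK, or 44.5 ± 19.5 and 44.9 ± 7.41 CPM (mean ± SD, n = 3 each). It was below the count minimum, and its groups overlapped. col4a5 had 108, 105 and 75.5 CPM in CtrlK and 85.4, 142 and 84.1 in DNK (log2 fold change 0.11 ± 0.44, adjusted p = 0.895). Its neighbour in the same table, col4a6, had 3, 26 and 9 counts in CtrlK and 7, 6 and 3 in DNK, with CtrlK replicate 2 far above the rest. COL4A4, a chain best known from the kidney filter in mammals, had 6, 6 and 16 counts in CtrlK against 8, 6 and 4 in DNK.

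col18a1a, whose mammalian counterpart is the source of the anti-angiogenic fragment endostatin, had the opposite sign. It had 191, 281 and 345 CPM in CtrlK and 91.5, 171 and 175 in DNK. Each DNK library was below each CtrlK library, and the mean was 273 ± 77.2 in CtrlK and 146 ± 47.0 CPM in DNK (mean ± SD, n = 3 each). The log2 fold change of −0.90 ± 0.38 did not pass (adjusted p = 0.158, over a range of 0.0619 to 0.748). col18a1b, with 2, 4 and 6 counts in CtrlK and 2, 1 and 3 in DNK, and the single type XV gene, col15a1b, with 2 counts in CtrlK and 1 in DNK, were too sparse to compare.

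**Figure D3:**
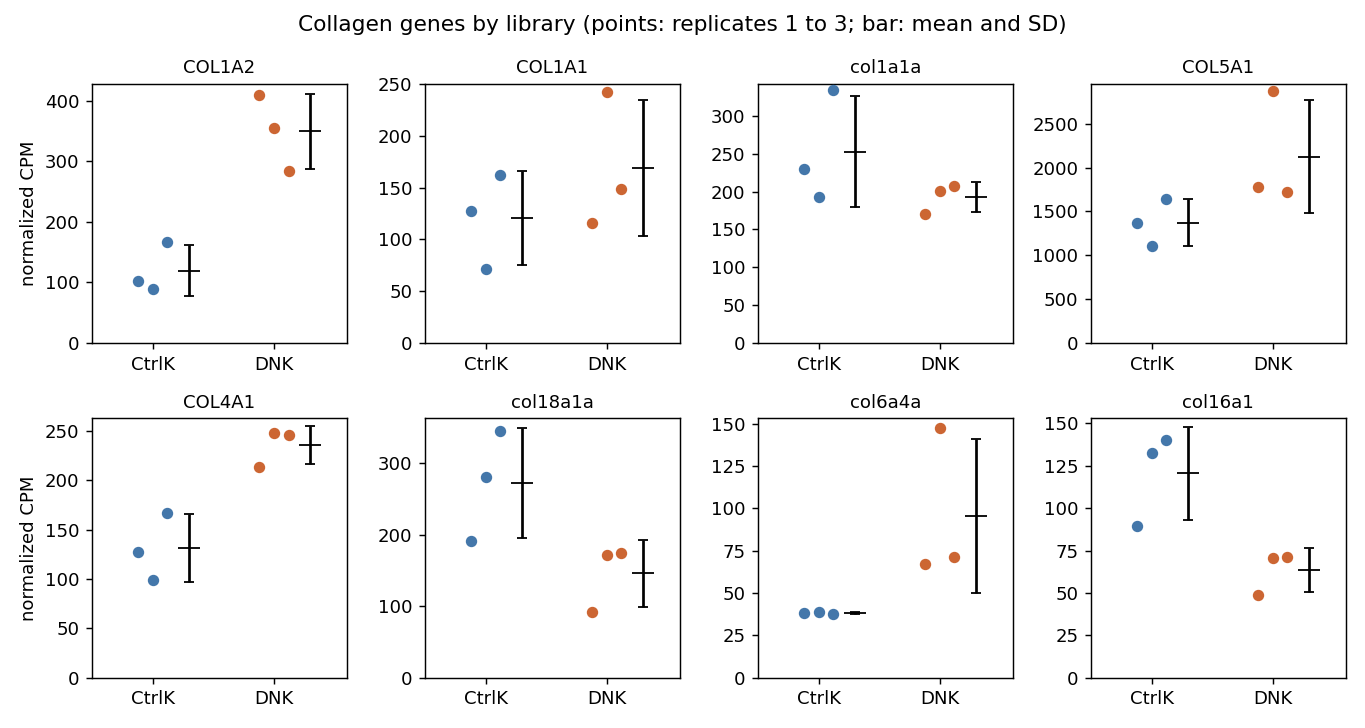
Normalized CPM (vertical axis, from 0) of 8 collagen genes in each CtrlK and DNK library, with the mean and SD over 3. COL1A2, COL5A1, COL4A1 and col6a4a have no overlap with DNK higher, col18a1a and col16a1 none with DNK lower, and the alpha-1 genes COL1A1 and col1a1a overlap.

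Type VI collagen is assembled from 3 different chains. Its 3 classical chain genes had values near 0 change. col6a1 had 517, 937 and 825 CPM in CtrlK and 909, 596 and 1113 in DNK, a wide and shared range (log2 fold change 0.20 ± 0.32, adjusted p = 0.740). COL6A2 had 159.5, 110.3 and 124 CPM in CtrlK and 140.3, 124 and 155 in DNK (log2 fold change 0.09 ± 0.40, adjusted p = 0.902). COL6A3 had 70.2, 49.6 and 91.7 CPM in CtrlK and 73.2, 41.3 and 90.6 in DNK (log2 fold change −0.05 ± 0.48, adjusted p = 0.954). The wide standard errors do not show that the 3 genes were alike in the groups. col6a4a, of a further type VI chain, had 6, 7 and 7 counts in CtrlK and 11, 25 and 11 in DNK, or 38.2 ± 0.423 against 95.3 ± 45.4 CPM (mean ± SD, n = 3 each). The groups did not overlap, DNK replicate 2 was the highest, and the gene did not pass (log2 change 1.31 ± 0.50, adjusted p = 0.119). Its relative col6a4b had 2, 9 and 5 counts in CtrlK and 0, 0 and 2 in DNK.

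The 9 tested genes of other types had a median log2 fold change of −0.47, with 8 negative, 0 called and 0 at an unadjusted p below 0.05. Among the collagens that sit on the surface of fibrils, col16a1 had 89.3, 132 and 140 CPM in CtrlK and 48.8, 70.9 and 71.2 in DNK, without overlap (log2 fold change −0.92 ± 0.45, adjusted p = 0.221). COL12A1 ENSDARG00000019601, one of 2 genes of type XII, which links fibrils under tension, had 274, 254 and 167 CPM in CtrlK and 85.4, 112 and 285 in DNK. DNK replicate 3 was the highest of the 6 libraries and the other two DNK libraries were the lowest. The log2 fold change was −0.53 ± 0.44 (adjusted p = 0.484), and −1.18 without DNK replicate 3. COL12A1 ENSDARG00000078322 had 128, 99.2 and 91.7 CPM in CtrlK and 79.3, 65.0 and 97.0 in DNK (log2 fold change −0.40 ± 0.44, adjusted p = 0.608). col19a1 (ENSDARG00000076163) had 57.4, 71.7 and 113 CPM in CtrlK and 42.7, 88.6 and 129 in DNK (log2 fold change 0.09 ± 0.50, adjusted p = 0.923).

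The transmembrane collagens were col23a1a, col23a1b and col17a1b, of which type XVII anchors skin cells. col23a1b had 345, 298 and 388 CPM in CtrlK and 311, 201 and 233 in DNK (log2 fold change −0.47 ± 0.33, adjusted p = 0.398). col23a1a had 121, 71.7 and 70.1 CPM in CtrlK and 48.8, 59.0 and 25.9 in DNK, without overlap (log2 fold change −0.95 ± 0.50, adjusted p = 0.254). col17a1b had 83.0, 143 and 124 CPM in CtrlK and 109.8, 100.4 and 84.1 in DNK (log2 fold change −0.25 ± 0.43, adjusted p = 0.748). col7a1l ENSDARG00000069692, named for the anchoring fibrils of skin, had 76.6, 99.2 and 75.5 CPM in CtrlK and 73.2, 41.3 and 32.3 in DNK (log2 fold change −0.76 ± 0.48, adjusted p = 0.351). COL10A1 (ENSDARG00000054753), of the growth cartilage, had 12, 10 and 5 counts in CtrlK and 3, 12 and 5 in DNK (log2 fold change −0.35 ± 0.65, adjusted p = 0.771). Below the minimum, COL8A1, of a short-chain collagen of vessel walls, had 8, 11 and 10 counts in CtrlK and 3, 9 and 4 in DNK. col7a1 had 6, 9 and 16 against 5, 6 and 7, col28a2a had 16, 10 and 5 against 3, 9 and 5, and col27a1b had 3, 3 and 9 against 12, 2 and 11.

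Of the 34 collagen genes below the minimum, 2 had no count in any library, col8a1a and 1 of the 2 named col19a1, and none exceeded 26 counts in a library. The other 32 together had 450 counts in CtrlK against 248 in DNK, and 26 of them (81.3%) had a lower mean CPM in DNK. Among all 19384 untested genes with counts, 55.6% did. Genes not expected in heart endothelium (odorant and trace amine receptors, lens crystallins, cone opsins, vitellogenins and egg coat proteins, a list added after the values were seen) comprised 329 IDs, of which 158 had counts and 15 were tested. Of those 15, 0 rose and 2 fell, beside 4.72% and 2.40% of all genes tested. Negative values were found for 12 of the 15, beside 53.1% of all genes tested. Their median log2 fold change was −0.69, beside −0.07. Together the 329 IDs reached 3884 ± 317 CPM in CtrlK and 2639 ± 40.7 in DNK (mean ± SD, n = 3 each), 0.679 times as high. The part of this shift in the low values of cartilage, skin and other sparse collagens was not tested.

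**Figure D4:**
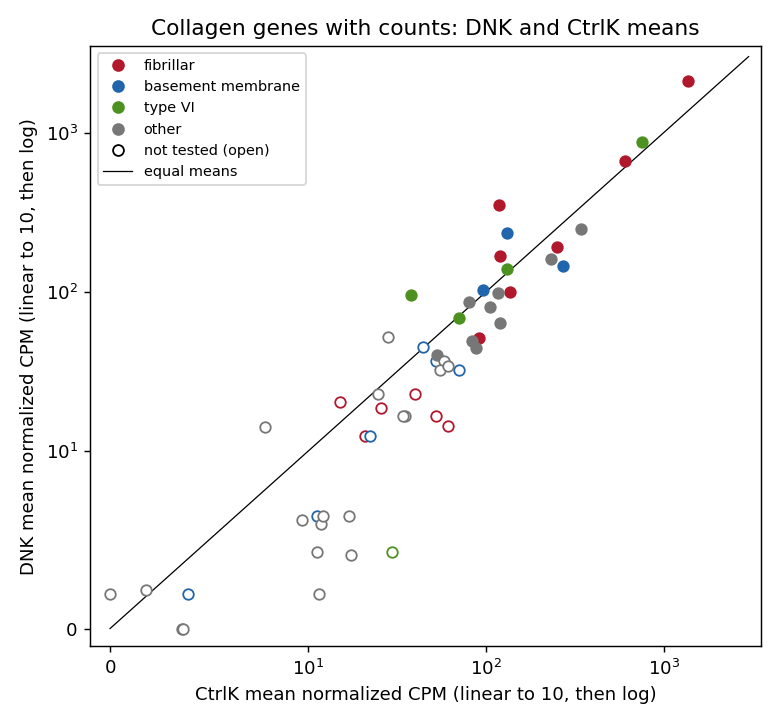
Mean normalized CPM of the 55 collagen genes with counts in CtrlK (horizontal axis) and DNK (vertical axis), both linear up to 10 and logarithmic above, with the line of equal means. Most open points, the 32 untested genes, lie under the line.

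Summed by class, fibrillar collagens stood higher in DNK through 2 genes, and other collagens stood lower. The fibrillar sum was 2776, 2845 and 3118 CPM in CtrlK and 3362, 4588 and 3325 in DNK, with no overlap. COL5A1 and COL1A2 had the largest differences in mean among its 13 genes, from 1373 to 2124 and from 119 to 349 CPM. The other 11 fibrillar genes summed to 1421 ± 197 CPM in CtrlK and 1285 ± 101 in DNK (mean ± SD, n = 3 each), which overlapped, and 8 of the 13 had a lower mean in DNK. The sum of other types was 1698, 1560 and 1629 CPM in CtrlK and 1062, 1039 and 1313 in DNK, also with no overlap, and 0.699 times as high. The basement membrane sum of 705 ± 127 CPM in CtrlK and 620 ± 76.8 in DNK, and the type VI sum of 1030 ± 205 and 1181 ± 267 CPM (mean ± SD, n = 3 each), overlapped. All collagens together gave 6277 ± 418 CPM in CtrlK and 6697 ± 538 in DNK (mean ± SD, n = 3 each), a direction opposite to that of their share of all gene counts given above. As shares of the collagen counts, which no scaling touches, fibrillar genes held 46.4% ± 1.28 in CtrlK and 55.9% ± 7.00 in DNK, and other types 26.1% ± 2.61 and 17.1% ± 2.62 (mean ± SD, n = 3 each). The sums carry no test. With library size as the only scaling, the log2 ratio of the fibrillar sum was 0.057 and that of type VI turned from 0.20 to −0.11, while the median of all genes was −0.39.

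**Figure D5:**
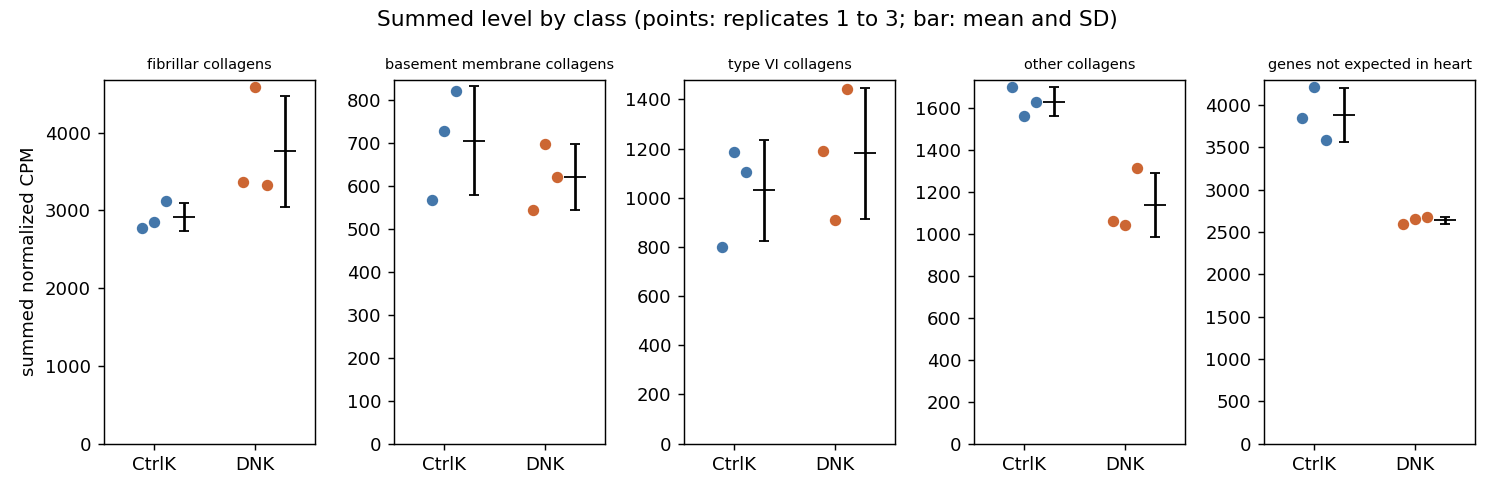
Summed normalized CPM (vertical axis, from 0) of each collagen class and of the genes not expected in heart, by library, with mean and SD over 3. The DNK libraries lie above CtrlK for fibrillar collagens and below CtrlK for other collagens and for genes not expected in heart, and overlap CtrlK for basement membrane and type VI collagens.

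Genes that fold, cross-link, export, bind and degrade collagens or inhibit their breakdown, and markers of other cells, were taken from lists. Of 12 tested genes for folding and cross-linking, 0 rose and 1 fell, and the median log2 fold change was −0.07. With 6 positive and 6 negative, the values spread widely around that median. They ran from −1.87 for LOXL3 ENSDARG00000076306 (adjusted p = 0.0540, no overlap) to 1.80 for CRTAP (adjusted p = 0.179, with overlap). The CtrlK counts of LOXL3 ENSDARG00000076306 were 23, 14 and 23 and its DNK counts 2, 4 and 9, so CtrlK alone brought it to the count minimum. For LOXL3 ENSDARG00000039563, which was not tested, the groups overlapped and the mean was higher for DNK (35.0 CPM) than for CtrlK (29.6 CPM). Each of these lists and of the marker lists had at most 1 called gene, beside 7.12% of all genes tested, and nothing more is read from counts this small. P4HB, the disulfide isomerase that is also the beta subunit of prolyl 4-hydroxylase, had 338 ± 72.6 CPM in CtrlK and 146 ± 8.25 in DNK (mean ± SD, n = 3 each). It fell by 1.21 as log2, with an SE of 0.34 and an adjusted p of 0.0451. In 11 of 16 alternatives, each of the 6 without a library included, P4HB was no longer called (adjusted p between 0.0187 and 0.750 in all). Of 5 tested genes for export and propeptide cleavage, 0 passed, and 2 were positive and 3 negative. BMP1 ENSDARG00000028071, a procollagen C-proteinase, stood at 0.72 ± 0.51 as log2 (adjusted p = 0.399). BMP1 ENSDARG00000028053, not tested, had 23.5 ± 15.7 CPM in CtrlK and 14.4 ± 7.24 in DNK (mean ± SD, n = 3 each). The value for sar1ab, a GTPase of the export coat, was −1.03 ± 0.59 (adjusted p = 0.298). CREB3L2, in the same list, was left out of the tests given here by the expression filter (filterByExpr). It had 0, 1 and 1 counts in CtrlK and 15, 10 and 14 in DNK, so it reached 10 counts in DNK alone. Of 16 tested fibril and basement membrane partners, 0 passed, with a median of −0.23. TNC ENSDARG00000078362, the injury-associated glycoprotein tenascin C, stood at −1.57 ± 0.47 as log2 (adjusted p = 0.0567, below 0.05 with library size only, DESeq2 or the replicate block). For LAMB1 ENSDARG00000101209, a laminin chain, the value was −1.15 ± 0.48 (adjusted p = 0.154).

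Of 5 tested genes for collagen breakdown or its inhibition, 1 rose, and 4 were positive and 1 negative. CTSB, the lysosomal protease cathepsin B, had 1314 ± 233 CPM in CtrlK and 3133 ± 148 in DNK (mean ± SD, n = 3 each), or 1.25 ± 0.25 as log2 (adjusted p = 0.0101). Its call was kept in 16 of 17 alternatives and lost with the covariate (adjusted p = 0.806). Both TIMP2 IDs, of an inhibitor of metalloproteinases, were higher in DNK without overlap and did not pass. They stood at 0.53 ± 0.35 and 0.40 ± 0.30 as log2 (adjusted p = 0.382 and 0.433). The negative gene, ctslb, stood at −1.09 ± 0.50 (adjusted p = 0.193). Its highest DNK library was only just below its lowest CtrlK library. No MMP gene had enough counts to be tested, the highest being mmp25a with 11 counts in CtrlK replicate 3 and 0 elsewhere. Of 6 tested collagen receptors and binding proteins, 0 passed, with sdc4, a syndecan, at 0.78 ± 0.27 (adjusted p = 0.0868) and CD36, a scavenger receptor, at −1.35 ± 0.48 (adjusted p = 0.0987).

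Fibroblasts, mural cells and epicardial cells also make collagen, so their markers are given beside COL1A2. In bulk samples more cells of a type and more RNA per cell cannot be told apart. Of 30 IDs of fibroblast and mural markers 27 had counts and 8 were tested, and their summed CPM was 1408 to 1717 in CtrlK and 1801 to 2103 in DNK. PDGFRB, a receptor of mural cells and fibroblasts, rose from 78.2 ± 7.45 to 256 ± 75.9 CPM (mean ± SD, n = 3 each), or 1.70 ± 0.40 as log2 (adjusted p = 0.0205). It was not called without replicate 1 (0.0534) or 2 (0.0630) of CtrlK, replicate 3 of DNK (0.0915), or with the covariate (0.819). PDGFRA had 359 ± 135 CPM in CtrlK and 482 ± 135 in DNK (mean ± SD, n = 3 each, adjusted p = 0.473). Of the 8 tested genes, 6 were positive and 2 negative, the MYH11 IDs at −0.60 and −0.24 as log2. Among the positive genes, TAGLN ENSDARG00000033466 had 17, 17 and 11 counts in CtrlK and 40, 24 and 22 in DNK. It was higher in DNK without overlap and did not pass (adjusted p = 0.166). DCN had 10, 12 and 4 counts in CtrlK and 8, 5 and 36 in DNK, which overlapped (adjusted p = 0.382). RGS5, a mural marker, stood at 0.03 as log2. CSPG4, not tested, had 8, 8 and 14 counts in CtrlK and 5, 1 and 4 in DNK, lower in each DNK library. Both CNN1 IDs were at 0, and acta2, LUM, DPT and KCNJ8 had at most 3 counts in a library. MFAP4, named in this list, is better known in zebrafish as a macrophage gene. Of 11 epicardial IDs 10 had counts and 5 were tested, with a sum of 1685 to 2773 CPM in CtrlK and 4930 to 6004 in DNK. krt8, a keratin of simple epithelia, made most of that sum and rose by 1.38 ± 0.27 on the log2 scale (adjusted p = 0.00996), a call lost with the covariate (adjusted p = 0.842). Of the 5 tested, 4 were positive and 1 negative, WT1 at −0.30 as log2. ALDH1A2 (0.78, adjusted p = 0.146), podxl (0.95, adjusted p = 0.174) and krt18b (0.69, adjusted p = 0.338) were higher in DNK without overlap and did not pass. Of all genes tested, 16.2% were higher in DNK without overlap. Among the other IDs, wt1b was at 0, TBX18 had at most 1 count and TCF21 at most 3 in a library. WT1 had 12, 11 and 6 counts in CtrlK and 5, 7 and 10 in DNK. The part of such cells in the COL1A2 rise was not tested.

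Few markers of other cells passed. The macrophage and neutrophil sum was 830 to 1543 CPM in CtrlK and 2012 to 2203 in DNK. Of its 6 tested genes 0 were called, and all 6 were positive, beside 46.9% of all genes tested, with a median log2 fold change of 0.96. The 6 hold the related genes SPI1 and spi1a, cd74a and cd74b, and an MFAP4 ID that the fibroblast and mural list also counts. Untested IDs went both ways. MPEG1 ENSDARG00000055290 had 28.3 ± 24.3 CPM in CtrlK and 16.6 ± 9.57 in DNK, and csf1ra 19.6 ± 17.2 and 39.1 ± 5.38 (mean ± SD, n = 3 each). lyz was at 0 in every library. SPI1 stood at 1.74 ± 0.52 (adjusted p = 0.0541) and cd74a at 0.97 ± 0.31 (adjusted p = 0.0681). The cardiomyocyte sum was 3070 to 4078 CPM in CtrlK and 4011 to 4676 in DNK, which overlapped. Of its 10 tested genes 7 were positive, and atp2a2a was called (log2 fold change 2.03 ± 0.58, adjusted p = 0.0453). Its CtrlK counts were 4, 5 and 2 and its DNK counts 15, 11 and 17, so DNK alone brought it to the count minimum. In each of the 6 fits that omitted a library it no longer passed (adjusted p 0.0771 to 0.178). The untested ATP2A2 ENSDARG00000005122 overlapped, with mean CPM of 37.3 for CtrlK and 28.8 for DNK. The 3 negative genes were TTN ENSDARG00000000563 (−0.60 as log2), TNNT2 ENSDARG00000020610 (−0.52) and RYR2 (−0.52). Of 12 tested endothelial genes, 9 were positive and 3 negative, flt1 (−0.65 as log2), AQP8 (−0.54) and FLT4 (−0.44). The called gene, vwf, of the von Willebrand factor, rose by 1.59 ± 0.36 as log2 (adjusted p = 0.0179). It was not called without replicate 1 (0.0534) or 2 (0.0605) of CtrlK, replicate 1 of DNK (0.0620), or with the covariate (0.967). The part of such cells in the collagen values was not tested.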

How the data were processed

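The deposited tables hold raw read counts, 1 whole number per Ensembl gene for each of 3 CtrlK and 3 DNK libraries. The submitters' processing notes name build GRCz11 and, without roles, DESeq2 1.22.2, HTSeq 0.6.1, Trim Galore 0.6.0 and HISAT2 2.1.0. How strand was handled and which annotation was used is not given in the sources used here. Whether reads of overlapping genes or near-identical copies were set aside or assigned to a gene is therefore not known. Per the labels' protocols, cDNA was amplified by MALBAC without stated molecular identifiers, so intervals and floors cover counting error only. Rows that name no gene held 98.5% to 98.9% of each library's reads and entered neither library sizes nor tests.

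A name was found for 29201 of 32520 IDs. Genes were kept by filterByExpr (3792) and tested with edgeR 4.0.16 (TMM, glmQLFit with robust = TRUE, glmQLFTest, R 4.3.3), adjusted over all of them. All 23 collagen genes with at least 10 counts in 3 libraries were among those tested. Normalized CPM is relative to the summed counts of the tested genes, TMM-scaled. An SE was taken from the fold change (log2) and the square root of its F statistic. The steps were tested on simulated counts, where they recovered 10 of 100 genes changed 2-fold and 77 of 93 changed 4-fold. Alternatives included limma 3.58.1 (voom) and DESeq2 1.42.0. No pair of libraries agreed within sampling noise (chi-square per degree of freedom 3.08 to 9.18).

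Members and lists were chosen with earlier results of these data known. All members at or above the minimum are named, others with 10 counts in any library, and from each of the 11 gene lists, the later-added pattern list aside, up to 4 called genes or, with none, the 2 of smallest p. Some genes beyond the rule were named after their values were seen.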

Additional observations from a re-analysis of the deposited data

How the results depend on the processing

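The collagen call, COL1A2 higher in DNK, was kept in 11 of 16 alternatives. The count of collagen genes higher was 0 to 1 when each replicate was left out, and 0 with the covariate. It was also 0 when 50 counts were asked of 3 libraries, under which COL1A2 and 18 other collagen genes were not tested. No alternative called a collagen gene lower. Over all genes, 179 were higher and 91 lower. The higher count was 112 with library size only, 283 with no filter, 106 with the 50-count filter, 1 with the covariate and 74 to 213 with a replicate left out. The lower count was 248 with library size only, 60 scaled to all deposited reads, 46 with limma-voom, 0 with the covariate (249 genes at an unadjusted p under 0.05) and 14 to 64 with a replicate left out. The covariate, reads outside genes per gene count, was higher in every CtrlK library than in any DNK library. Calls and signs under it therefore cannot separate it from the group difference. In the labels, CtrlK and DNK replicates share only a number. Deviations of same-numbered libraries correlated at −0.105, −0.0029 and −0.0408. With 3 libraries a group and few counts, these values cannot show whether same-numbered libraries were prepared together. With the replicate block edgeR called 1 collagen gene higher and 0 lower, and 169 and 84 genes in all.

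Over the 22 uncalled collagen genes the sign changed in 25 of 356 cases. With library size only they were −0.20 (col4a5), −0.17 (col5a3a), −0.11 (col6a1), −0.22 (COL6A2) and −0.20 (col19a1). COL6A3 was 0.071 scaled to all reads and 0.063 with no filter, and col5a3a −0.10 and col6a1 −0.026 with the 50-count filter. With the covariate they were −0.62 (COL1A1), 0.16 (COL2A1), −0.0031 (COL4A1), −0.0054 (COL5A1), 1.43 (COL10A1), 0.37 (COL12A1 ENSDARG00000019601) and −1.04 (col19a1). Leaving out a replicate gave −0.14 to 0.28 for col4a5, −0.019 to 0.48 for col5a3a, −0.26 to 0.25 for COL6A3, −0.999 to 0.032 for COL10A1 and −0.26 to 0.46 for col19a1. The cause was not tested. The log2 ratios of the class sums were 0.37 (fibrillar), −0.19 (basement membrane), 0.20 (type VI) and −0.52 (other). With library size only they were 0.057, −0.49, −0.11 and −0.83. With a replicate left out they ran from 0.23 to 0.49, −0.29 to −0.04, 0.07 to 0.39 and −0.59 to −0.42. With 3 libraries a group and a biological coefficient of variation of 0.330, a gene that did not pass is not shown to be unchanged.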
